A study of Zea mays with 10 samples.

Results

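Gibberellin is a growth hormone that acts by removing its own repressors. The DELLA proteins hold back growth genes in the nucleus. When gibberellin binds the receptor GID1, the receptor grips a DELLA protein and an F-box protein then marks the DELLA for destruction. In maize the DELLA proteins are encoded by d8 and d9, close duplicates in which dominant mutations give dwarf plants. The gene d1 encodes a gibberellin 3-oxidase, the enzyme of the last step to the active hormone, and plants that lack it are dwarfs whose ears carry anthers. Meristems that express the homeobox gene kn1 are generally kept low in active gibberellin, which KN1 promotes through an enzyme that inactivates the hormone.

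The 4 genes described here were taken by gene identifier from the 39636 gene models of the expression table: the DELLA genes d8 (GRMZM2G144744) and d9 (GRMZM2G024973), the receptor gene gid1 (GRMZM2G016605) and the synthesis gene d1 (GRMZM2G036340). The reference name table names d8, d9 and d1 under these identifiers. It gives GRMZM2G016605 no name, so gid1 is the name under which it was selected. Of the 4 genes, 3 passed the filter on low counts and gid1 did not. No genome position is given for them, since for the expression table the sources used here name no build.

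RNA was sequenced from ear primordia of 1 mm, each library a pool of more than 10 ears. The mutant group was homozygous for a fea4 mutation (3 pools), and its control group was heterozygous fea4/+ siblings of normal appearance (3 pools), so that both groups carried at least 1 mutant copy. The labels trace the reference allele to chemical mutagenesis of the inbred A619 and describe crossing into other inbreds, but do not say which allele or background these pools had. FASCIATED EAR4 (FEA4) belongs to the bZIP transcription factors, and ears that lack it grow broad and flattened. The labels do not say whether the pools of a group came from separate plots or days, so p-values measure the spread between these pools only.

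Levels are given as FPKM, fragments per kilobase as computed by the authors, a measure meant for comparison between genes. These values did not always follow the fragment counts and library totals. For the gene an1, FPKM was higher in sibling replicate 1 than in sibling replicate 2 (39.7 against 37.0). Its fragments per 1000000 of the TMM-adjusted library size were lower there (84.7 against 97.7). Orders and overlaps given in FPKM therefore hold for that measure only. Fold changes are mutant over sibling on the log2 scale, from edgeR's quasi-likelihood test on the fragment counts, adjusted by the Benjamini-Hochberg method over all 20618 tested genes with a threshold of 0.05. Library totals ranged from 8168955 fragments in mutant replicate 2 to 28323324 in mutant replicate 3. The transcript of FEA4 itself was present at 4.46 FPKM ± 0.239 in siblings and 4.61 FPKM ± 1.42 in mutants (SD, n = 3 each), so its level did not check the genotype labels. A list of 5 markers of meristems in the inflorescence was not split by meristem type. All 5 were detected in siblings, but bd1 had 13, 30 and 12 fragments in sibling replicates 1 to 3 and 0 in every mutant pool. The summed level of these markers in CPM (counts per 1000000 of the TMM-adjusted library size) was 985 to 1120 in siblings and 817 to 1130 in mutants, most of it kn1. A list of 17 leaf photosynthesis markers summed to 93.2 to 99.9 CPM in siblings and 113 to 127 CPM in mutants, with 6 members at 0 in all libraries, among them the C4 gene pep1 and the Rubisco activase gene Rca. Of these leaf markers 5 were tested, with 1 called higher in mutants and 0 lower, against 1.4% and 1.08% of all tested genes. A list of 18 pollen and anther markers summed to 318 to 329 and 331 to 347 CPM, with 11 members at 0.

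Of the DELLA pair, d8 was the more abundant transcript and fell in fea4 ears. It stood at 29.3, 27.3 and 27.9 FPKM in sibling replicates 1 to 3 and at 16.9, 17.9 and 17.8 FPKM in mutant replicates 1 to 3. The groups did not overlap, and the pools of each group lay close together, with a coefficient of variation of 3.57% in siblings and 2.98% in mutants. In CPM the coefficient of variation was 6.23% in siblings and 3.87% in mutants. Behind these levels stood 1348, 1422 and 1534 sibling fragments and 919, 418 and 1353 mutant fragments. The group means were 28.2 FPKM ± 1.01 and 17.5 FPKM ± 0.522 (SD, n = 3 each), so the mutant mean was 37.7% lower.

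The log2 fold change of d8 was −0.66 ± 0.11 (SE, 95% interval −0.89 to −0.43, edgeR adjusted p = 0.00305). The interval corresponds to a mutant level of 0.54 to 0.741 times that of siblings. Calls of lower expression covered 1.08% of the tested genes (223 of 20618), and d8 ranked 54 by p-value among all tested genes. By size the change was less unusual, since 6.92% of tested genes had a lower log2 fold change. Within each library, d8 stood above 79.4% to 80.8% of the gene models with any fragments in siblings and above 68.5% to 70.2% in mutants. In the authors' deposited table, which came from DESeq, d8 had a log2 fold change of −0.66 with an adjusted p of 0.000918, against 1.7% of genes called there in either direction.

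The call of d8 did not rest on a single pool. With any 1 of the 6 libraries left out, its log2 fold change stayed between −0.71 and −0.62 and its edgeR adjusted p between 0.00515 and 0.0275. The ear pools were whole organs, so less d8 RNA per cell and fewer cells that express d8 cannot be told apart. Of the 5 markers of meristems in the inflorescence, 4 fell in the same pools: ra3, BA1, ra1 and bd1 (edgeR adjusted p = 2.32e-05, 0.00399, 0.0451 and 0.032). Among all tested genes 1.08% were called lower. The marker list was chosen with earlier results of these data known, and bd1 passed the filter on low counts through its sibling pools alone. The last marker, kn1, was at 565 FPKM ± 50.4 in siblings and 581 FPKM ± 107 in mutants (SD, n = 3 each) and did not pass the test (edgeR adjusted p = 0.992). The part of these markers in the d8 result was not tested.

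**Figure D1:**
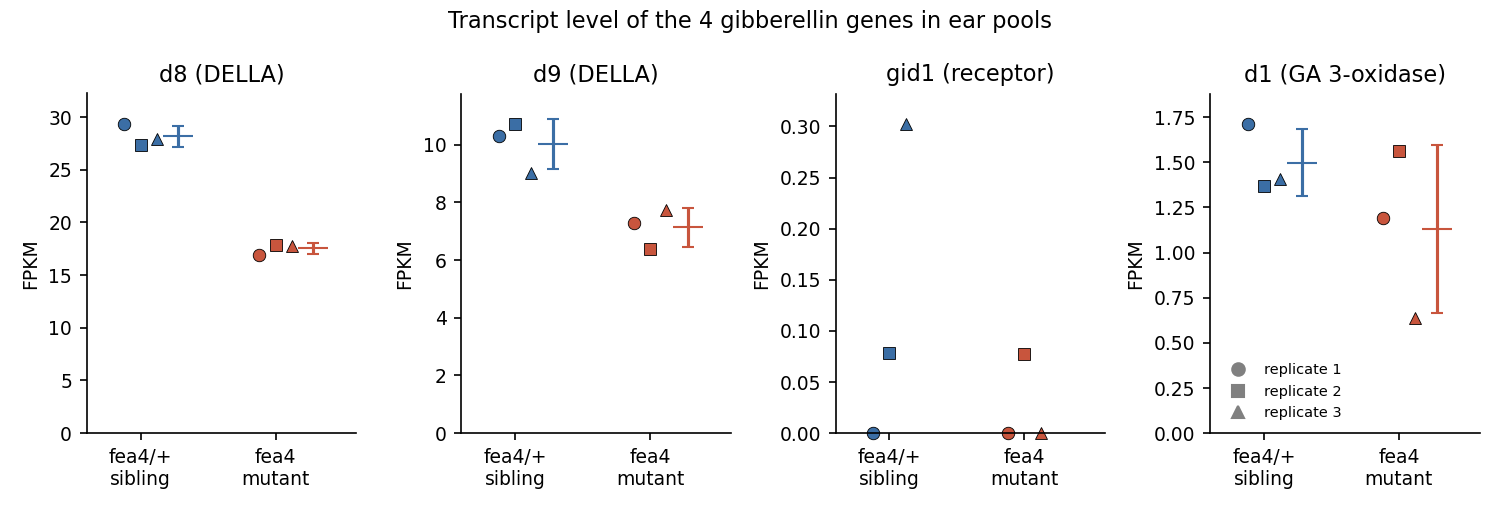
Level of each gene in FPKM (vertical axis, from 0, a separate scale per gene) in 3 fea4/+ sibling pools and 3 fea4 mutant pools. Points are single pools with the shape giving the replicate number, and horizontal marks with bars are the mean ± SD, left out for gid1. For d8 all mutant pools lie at 16.9 to 17.9 FPKM, below the sibling pools at 27.3 to 29.3. The d9 groups are also apart, and those of gid1 and d1 overlap.

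The second DELLA gene, d9, had lower values in the mutant pools but did not pass the test. It stood at 10.3, 10.7 and 9.03 FPKM in sibling replicates 1 to 3 and at 7.27, 6.39 and 7.73 FPKM in mutant replicates 1 to 3. Here too the groups did not overlap. Among tested genes, 8.45% had 3 mutant FPKM values all below the 3 sibling values, and d8 and d9 were both among them. The means of d9 were 9.99 FPKM ± 0.854 and 7.13 FPKM ± 0.68 (SD, n = 3 each), a mutant mean 28.6% lower.

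The log2 fold change of d9 was −0.51 ± 0.16 (SE, 95% interval −0.86 to −0.17), with an unadjusted p of 0.00521 and an edgeR adjusted p of 0.105. Its unadjusted interval thus lay below 0, while the adjustment over all genes left it short of the threshold. In total 7.71% of tested genes were lower at an unadjusted p under 0.05. DESeq2 gave d9 an adjusted p of 0.074, and the authors' deposited table gave −0.52 with an adjusted p of 0.343. Counting error alone would give an SE of 0.06 for d9, so depth was not what set the width of its interval. The fragment values of d9 were not whole numbers in any of the 6 libraries (466.8, 529.7 and 523.9 in siblings, 380.8, 139.8 and 568.2 in mutants), whereas those of d8 were whole in all 6. The source of the part counts was not tested.

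Since d8 passed the threshold and d9 did not, the difference between them was tested directly. The ratio of d8 to d9 FPKM was 2.85, 2.56 and 3.09 in sibling replicates 1 to 3 and 2.33, 2.8 and 2.3 in mutant replicates 1 to 3. The groups overlapped, as mutant replicate 2 lay above sibling replicate 2. The mean log2 ratio was 1.5 in siblings and 1.3 in mutants, a difference of −0.20 (exact permutation test over samples, two-sided, p = 0.2, n = 3 each). The smallest p that 3 pools against 3 allow is 0.1. A different response of d8 and d9 to the genotype was thus not shown, and equal responses were not shown either.

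Together the DELLA transcripts summed to 39.6, 38.0 and 36.9 FPKM in siblings and to 24.2, 24.3 and 25.5 FPKM in mutants. The mean sum was 38.2 FPKM ± 1.33 and 24.7 FPKM ± 0.716 (SD, n = 3 each), 35.3% lower in the mutants. The gene d8 made up 73.8% ± 1.81 of this sum in siblings and 71.1% ± 2.24 in mutants (SD, n = 3 each). So d8 contributed most of the DELLA transcript in both genotypes and most of the difference between them.

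**Figure D2:**
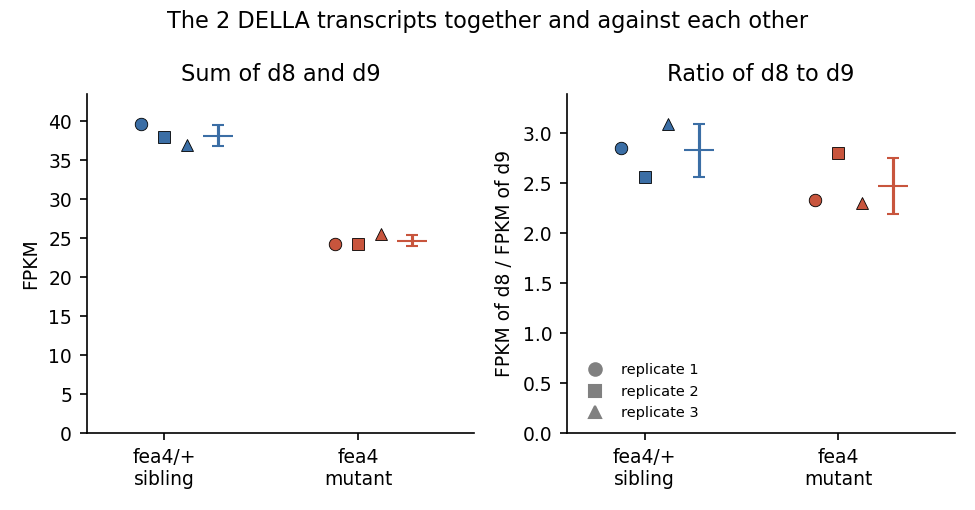
Left, summed FPKM of d8 and d9 per pool, and right, the ratio of d8 to d9 FPKM per pool, both axes from 0. Points are single pools, shapes give replicate numbers and marks with bars give the mean ± SD of 3 pools. The sums separate by genotype, at 36.9 to 39.6 against 24.2 to 25.5 FPKM, whereas the ratios overlap.

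The receptor gene gid1 was near the detection limit in these ears. Its fragment counts were 0, 2 and 9 for sibling replicates 1 to 3 but 0, 1 and 0 for mutant replicates 1 to 3, so 3 of the 6 libraries had none. A count of 0 allows a level of up to 0.184 CPM in sibling replicate 1 and of up to 0.155 and 0.11 CPM in mutant replicates 1 and 3 (3 counts each). Where fragments were found, gid1 stood at 0.0785 and 0.302 FPKM in siblings and 0.0775 FPKM in a mutant, above at most 10.1% of the gene models with any fragments.

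Over all sibling pools gid1 had 11 fragments and over all mutant pools 1, a sibling-to-mutant ratio of 11.4 for the library totals (95% exact interval 1.66 to 490.0, counting error only). That ratio rested on sibling replicate 3. Without it the counts were 2 and 1 and the ratio 3.37, with an interval of 0.175 to 199. The groups overlapped and the gene was below the filter, so no test was made. The authors' deposited table lists a log2 fold change of −2.13 for it with an adjusted p of 0.977. A change in the gid1 transcript was not detectable at this depth.

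The synthesis gene d1 was expressed at a low level that varied between mutant pools. It stood at 1.71, 1.37 and 1.41 FPKM in sibling replicates 1 to 3, from 55, 48 and 58 fragments. In mutant replicates 1 to 3 it stood at 1.19, 1.56 and 0.637 FPKM, from 44, 24 and 33 fragments. Mutant replicate 2 lay within the sibling range and mutant replicate 3 lay far below it, although that was the deepest library. The coefficient of variation was 12.5% in siblings and 41.0% in mutants.

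The means of d1 were 1.5 FPKM ± 0.187 and 1.13 FPKM ± 0.463 (SD, n = 3 each). This gave a log2 fold change of −0.48 ± 0.49 (SE, 95% interval −1.52 to 0.55, edgeR adjusted p = 0.692). The interval spans mutant levels from 0.35 to 1.46 times those of siblings. Counting error alone would give an SE of 0.18, so most of the width came from the spread between pools. Without mutant replicate 3 the log2 fold change was −0.18 (edgeR adjusted p = 0.947). The estimate for d1 was close to that of d9 in size, but its SE was larger, and 11.2% of tested genes had a lower log2 fold change.

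**Figure D3:**
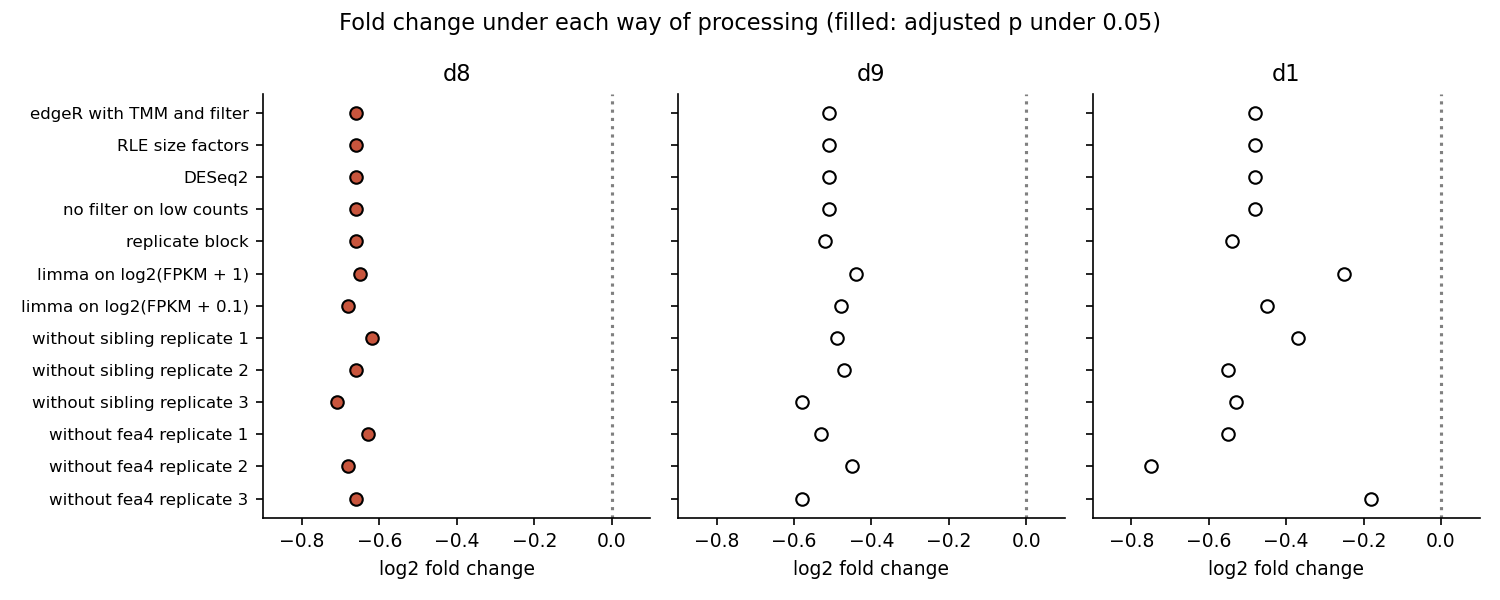
Log2 fold change (horizontal axis) of d8, d9 and d1 under the main edgeR fit and 12 alternatives (vertical axis), with filled points where the adjusted p is under 0.05. All 13 points of d8 are filled, at −0.71 to −0.62, and none of d9 or d1 are, with d1 spread from −0.75 to −0.18.

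Other genes were matched to the pathway lists by symbol, which for CPS1 was the only ground. The reference table gave 4 beyond the 4 members, of which 3 were tested: 0 were higher, 0 lower and 3 did not pass the threshold by edgeR, with 0 and 0 at an unadjusted p under 0.05 and 0 and 0 by DESeq2. In the edgeR fit 1.4% of tested genes were higher and 1.08% lower, and 8.48% were higher at an unadjusted p under 0.05. DESeq2 called 2.65% higher and 1.79% lower. The gene an1, which encodes the ent-copalyl diphosphate synthase of the first committed step, had 39.7, 37.0 and 37.4 FPKM in siblings and 44.6, 38.4 and 35.5 FPKM in mutants. Its log2 fold change was 0.09 ± 0.11 (SE, 95% interval −0.14 to 0.31, edgeR adjusted p = 0.757). The gene d3, which encodes a cytochrome P450 of the middle of the pathway, had 10.1, 11.4 and 11.3 FPKM in siblings and 13.1, 13.7 and 11.2 FPKM in mutants. Its log2 fold change was 0.17 ± 0.15 (SE, 95% interval −0.15 to 0.49, edgeR adjusted p = 0.652).

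The third, CPS1, was matched by its symbol alone and the table does not describe it. It stood at 10.5, 12.5 and 11.3 FPKM in sibling replicates 1 to 3 and at 12.7, 13.1 and 14.6 FPKM in mutant replicates 1 to 3. The mutant pools all lay above the sibling pools, as they did for 12.8% of tested genes. CPS1 had a log2 fold change of 0.23 ± 0.14 (SE, 95% interval −0.07 to 0.53, edgeR adjusted p = 0.466), and its fragment values were not whole in any library. The gene ga3ox2, which shares its symbol stem with the 3-oxidases, was listed at 0 in all 6 libraries and was not tested. The median log2 fold change was −0.51 over the 3 tested members and 0.17 over the 3 other tested genes, against −0.01 over all tested genes. These lists are too short to describe the pathway as a whole.

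**Figure D4:**
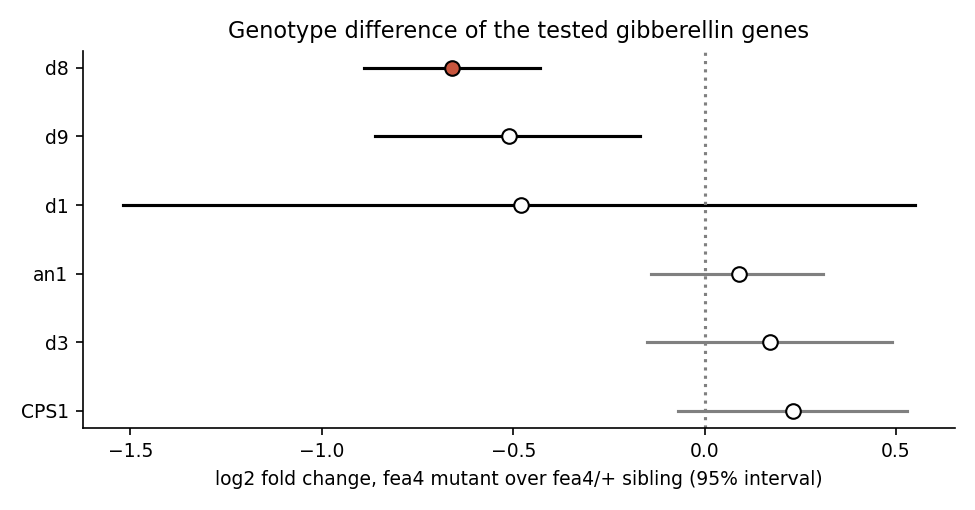
Log2 fold change of mutant over sibling (horizontal axis) with its 95% interval for the 6 tested genes of the gibberellin lists. Members are in black and the others in grey, among them CPS1, which was matched by symbol alone. A filled point marks an edgeR adjusted p under 0.05, which only d8 has among these 6, and the interval of d1 is the widest, from −1.52 to 0.55.

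Ordered by their FPKM in siblings, an1 led at 38.0 FPKM ± 1.44, followed by d8. CPS1 (11.4 FPKM ± 1.0), d3 (10.9 FPKM ± 0.701) and d9 (9.99 FPKM ± 0.854) came next (SD, n = 3 each), with pools that overlapped between neighbours. The genes d1 and gid1 were at the bottom, above ga3ox2. In mutants the order of the means was the same. There d9 no longer overlapped with d3, as the highest d9 pool was at 7.73 FPKM and the lowest d3 pool at 11.2 FPKM.

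The expression of d8 and d9 across the 6 libraries was alike. Likeness was measured as the root mean square difference between mean-centred log2 CPM values over the 6 libraries, which share depth and genotype, and is a description only. The difference between d8 and d9 was 0.131, and of 1866 tested genes with a name, 15 lay nearer to d8 than d9 did. The median difference of named genes from d8 was 0.401. The gene d1 was farther from both, at 0.369 from d8 and 0.448 from d9.

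The 3 named genes nearest to d8 were sfp7 (0.054), AUX14 (0.083) and aic1 (0.089), each value being the root mean square difference. They had log2 fold changes of −0.57, −0.66 and −0.56, of which only that of aic1, an auxin import carrier gene, passed the threshold (edgeR adjusted p = 0.0773, 0.16 and 0.0403). The nearest to d9 were aic1 (0.065), HB55 (0.093) and YGL010w (0.106), so aic1 was among the nearest 3 of both DELLA genes. The nearest to d1 were GLK47 (0.136), Dmc1 (0.178) and RNRS1 (0.182), all with their lowest value in mutant replicate 3, as d1 had. Their log2 fold changes of −0.56, −0.48 and −0.60 did not pass the threshold (edgeR adjusted p = 0.0713, 0.282 and 0.317).

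**Figure D5:**
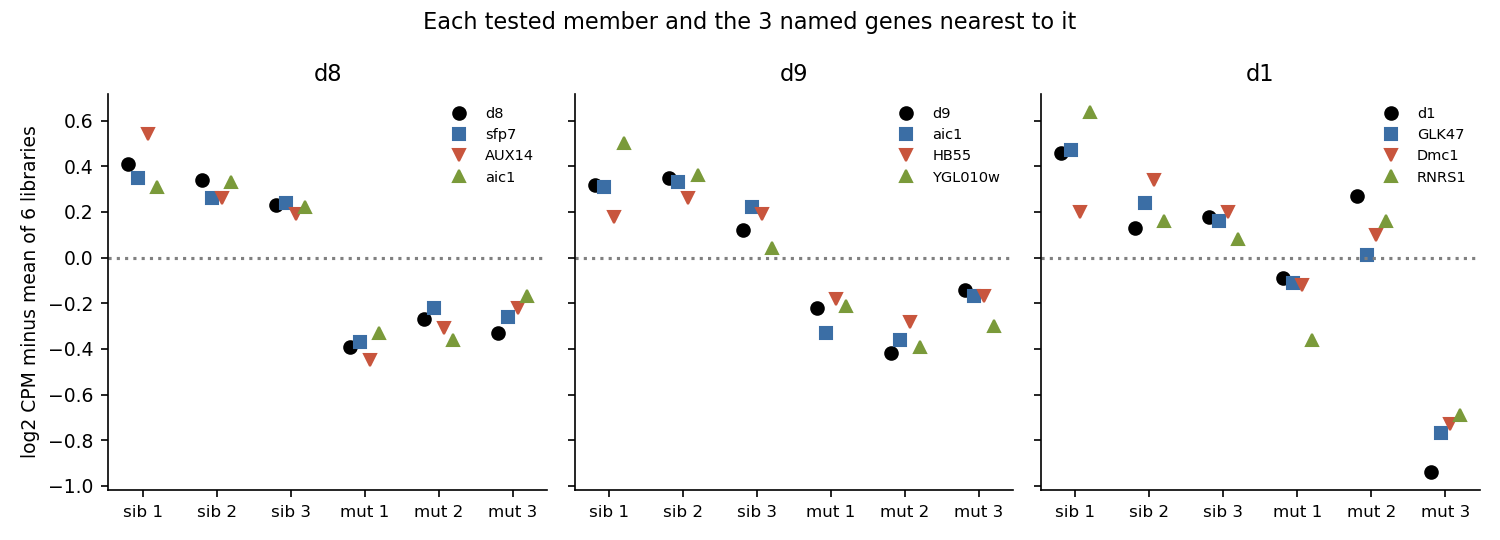
Log2 CPM of each tested member (black) and its 3 nearest named genes in every library, minus the gene's mean over the 6 libraries (vertical axis), with sibling pools (sib) and mutant pools (mut) on the horizontal axis. The d8 and d9 panels split by genotype, whereas in the d1 panel mutant replicate 3 is the lowest library for all 4 genes shown.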

How the data were processed

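Polyadenylated RNA of 6 ear pools was sequenced, and groups and replicate numbers come from the sample titles. The authors deposited expected counts (raw fragments per gene, 11.4% to 14.1% not whole per library) and FPKM. Per the file headers, the authors' DESeq results gave each gene a log2 fold change with an adjusted p-value. Tools named in the submitters' processing notes, without roles, are DESeq 1.14.0, Cufflinks 2.0.2, TopHat2 2.0.9 and CASAVA. The sources used here give neither the genome build nor whether counting used strand. The mean normalised counts (signal), a further deposited column set, were not used. The ChIP-seq peak lists of the series were not used here.

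Rounded counts went into the quasi-likelihood test of edgeR 4.0.16 (R 4.3.3, TMM, filterByExpr, robust, genotype as the only term), after tests on simulated data. With the same spread set for every gene, these recovered 4.5% of genes at a simulated log2 change of 0.5 (3 of 67). At changes of 1 and 2 they recovered 59.7% and 100%. A gene short of the threshold with a change near 0.5 therefore cannot be called unchanged. The simulated biological coefficient of variation was 20%. The coefficients of variation of CPM within groups were 3.87% to 9.6% for d8 and d9. For d1 they were 13.2% in siblings and 40.9% in mutants, so the recovery rates are not those of these genes. DESeq2 1.42.0 and limma 3.58.1 on log2(FPKM + 1) and log2(FPKM + 0.1) were alternatives. The biological coefficient of variation was 20.0%. Counts of replicates differed beyond sampling noise (chi-square over degrees of freedom 9.23 to 16.55). Intervals on counts cover counting error only, since they sum the libraries of a group and leave out the spread between pools. They also treat fragments as independent molecules, which fragments are not.

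Of 39636 identifiers, 18255 matched 1 entry of the RefSeq table for Zm-B73-REFERENCE-NAM-5.0, used for names only. The members and lists were chosen with earlier results of these data known. Named genes are the members, the tested genes of the gibberellin lists, the FEA4 gene and the 3 named genes nearest to each tested member. The markers ra3, BA1, ra1, bd1, kn1, pep1 and Rca are named from fixed marker lists.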

Additional observations from a re-analysis of the deposited data

How the results depend on the processing

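The direction and the call of d8, d9 and d1 were the same under all 12 alternatives to the main edgeR fit. The log2 fold change of d8 ranged from −0.71 to −0.62 with adjusted p from 7.48e-06 to 0.0341, the highest by limma on log2(FPKM + 0.1). That of d9 ranged from −0.58 to −0.44 with adjusted p from 0.074 to 0.268. That of d1 ranged from −0.75 without mutant replicate 2 to −0.18 without mutant replicate 3, with adjusted p from 0.524 to 0.947. The log2 difference of the d8 to d9 ratio ranged from −0.29 to −0.13 over 9 alternatives (exact p from 0.2 to 0.5). No fitted fold change is given for gid1, since with 12 fragments in all it would depend on the prior count. The number of changed genes, 512, was 894 by DESeq2, 922 without the filter on low counts, 191 and 162 by limma on log2(FPKM + 1) and log2(FPKM + 0.1), and 156 to 811 with 1 library left out. With the replicate number as a block it was 719, and d8, d9 and d1 had log2 fold changes of −0.66, −0.52 and −0.54. The d8 to d9 difference in pairs was −0.20 (paired exact permutation p = 0.5). Deviations of same-numbered libraries correlated at 0.006, −0.011 and −0.026 across genes, so no pairing by number was seen. Such correlations cannot exclude a shared plot or day that moved few genes. The low counts of gid1 and the spread of d1 between mutant pools limit what can be said of them, and 3 pools per group limit the test of the ratio.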
